A study of Mus musculus with 24 samples.

Results

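The genes described here are 10 glycosyltransferases that build and cap the sugar chains of mucins and of the glycoproteins and glycolipids on the intestinal surface. They were chosen by name (Galnt3, Galnt12, C1galt1, B3gnt6, Gcnt1, Gcnt3, Gcnt4, Fut2, B4galnt2 and St6galnac1), and all 10 were found among the 56691 genes listed, and 34471 of those listed had counts. Bulk RNA was sequenced from the distal jejunum of 24 mice, 3 in each of 8 groups, with 1 library per mouse. The groups were given by sex, by genotype and by treatment, which was control or 7 days on drinking water with 100 mM succinate. The genotypes were wild type and Ptk6-/-, a germline disruption of the gene for the intracellular tyrosine kinase PTK6 that was crossed into C57BL/6 mice, so that every cell type of these animals lacked it. Animals of all groups were matched for age (9 to 11 weeks at tissue collection) and bred in 1 colony. Succinate is a metabolite that tuft cells, the chemosensory cells of the epithelium, detect through a receptor. RNA came from whole tissue, in which fewer cells of a type and less RNA per cell cannot be told apart.

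Mucin-type O-glycans begin when polypeptide GalNAc-transferases such as GALNT3 and GALNT12 attach N-acetylgalactosamine to serine or threonine. C1GALT1 adds galactose to make core 1, B3GNT6 makes core 3 in its place, and the GCNT enzymes add the branches of core 2 and core 4. The ends of the chains are then capped: FUT2 adds the fucose of the H antigen that gut bacteria can feed on, B4GALNT2 adds the terminal N-acetylgalactosamine of the Sda antigen, and ST6GALNAC1 adds the sialic acid of sialyl-Tn.

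The libraries held 8080321 to 52824743 counts each, with a median of 43017686.5. Ptk6 had 7 to 61 counts in the Ptk6-/- libraries and 284 to 2405 in the wild type libraries. There were 3 libraries that stood apart from the rest. In male wild type control replicate 1 and male Ptk6-/- succinate replicate 1, the 18S ribosomal RNA gene Rn18s-rs5 took 51.2% and 29.7% of the counts, against at most 4.49% elsewhere, and the latter library was the shallowest. In the library labelled female wild type succinate replicate 2, heart muscle markers summed to 17371 CPM (reads of a gene scaled to a fixed library size), against at most 216 in any other library, and Y-linked genes to 74.3 CPM, against at most 0.971 in the other female libraries and 33.5 to 90.2 CPM in the male libraries. Its Y-linked level is thus that of a male library and goes against its label. It is kept under its label, and values without it are given beside many of the results that it enters. Enterocyte and goblet cell markers were detected in all 24 libraries (11 of 11 and 11 of 11). Lung markers summed to 5.94 to 16.8 CPM in the female Ptk6-/- libraries, control and succinate. They reached 14.8 CPM in 1 female wild type succinate library and at most 0.717 CPM in every other library. They thus went largely with genotype in females, and their part in the female genotype comparisons was not tested. Values with and without these 3 libraries are given where a call rests on them.

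Levels of different genes were compared per length, in the FPKM values deposited by the authors. B4galnt2 had the highest median over the 24 libraries, 34.9 FPKM, with a range of 2.24 to 104. Galnt12 followed with a median of 13.0 FPKM, and Gcnt3 with 7.51 FPKM. C1galt1 (5.89 FPKM), Galnt3 (5.25 FPKM) and Gcnt4 (5.15 FPKM) lay close together, each median inside the range of the other two. Fut2 (0.987 FPKM), B3gnt6 (0.716 FPKM) and Gcnt1 (0.430 FPKM) were lower, and the median of St6galnac1 was 0.0264 FPKM. Within a gene, levels below are TMM-normalized CPM, a scale that corrects for depth and composition but not for length. On that scale Fut2 spanned 54.3-fold from its lowest to its highest library and B4galnt2 41.0-fold, whereas C1galt1 spanned 2.23-fold and Galnt12 3.62-fold. Among the 9 genes with counts in every library, the 2 widest ranges thus belonged to enzymes that cap the chains.

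**Figure D1:**
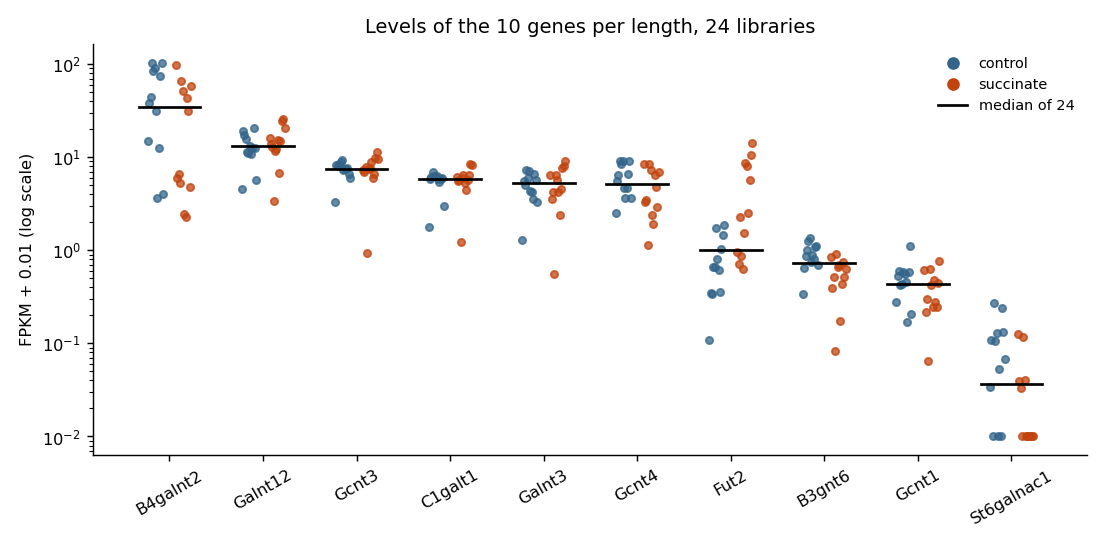
FPKM of the 10 genes (plus 0.01, log scale) in each of the 24 libraries, with control libraries in blue, succinate libraries in orange and the median of 24 as a black line. The medians run from 34.9 FPKM for B4galnt2 to 0.0264 FPKM for St6galnac1, and the points of B4galnt2 and Fut2 are the most widely spread among the genes with counts in every library.

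The first question was whether succinate changed these genes. Averaged over the sexes and genotypes, Fut2 was the only one of the 10 genes that passed the test, and it rose. The test was edgeR's quasi-likelihood test with Benjamini-Hochberg adjustment over all 21694 genes tested, with a call where the adjusted p was under 0.05 and the levels differed 2-fold or more. By that rule 158 genes, or 0.728%, were called, and 0.627% were called higher. Of the 10 genes, 4 had a positive and 6 a negative log2 fold change, where 49.7% of all genes tested were positive. Their median was -0.20, beside -0.0025 over all genes. Without the library with Y-linked genes the signs were again 4 and 6 (47.2% of all genes positive), with a median of -0.16. Unadjusted p-values under 0.05 were reached by 3 of them (Fut2, B3gnt6 and St6galnac1), against 16.1% of all genes.

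Fut2 CPM in the male wild type controls were 1.54, 2.33 and 2.33, and 5.66, 5.32 and 17.1 after succinate. In male Ptk6-/- mice they were 4.09, 4.40 and 12.8 in controls and 20.3, 4.75 and 11.02 after succinate. The libraries of the male wild type groups did not overlap, while those of the male Ptk6-/- groups did. In female wild type mice the controls held 5.89, 4.75 and 2.63 CPM and the succinate libraries 67.4, 62.1 and 17.3 CPM. In female Ptk6-/- mice the controls held 6.54, 9.98 and 16.7 CPM and the succinate libraries 36.4, 75.5 and 83.5 CPM. The libraries labelled female succinate thus all lay above the 6 female controls. One of them, at 62.1 CPM, is the library with Y-linked genes at a male level. Without it the other 5 still lay above all 6 female controls, and 4 of them above every male library. Ordered by group mean, female Ptk6-/- succinate (65.1 CPM) and female wild type succinate (48.9 CPM, or 42.3 CPM without the library with Y-linked genes) came first and male wild type control (2.06 CPM) last, and only the last 2 groups in that order, female wild type control (4.42 CPM) and male wild type control, did not overlap.

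**Figure D2:**
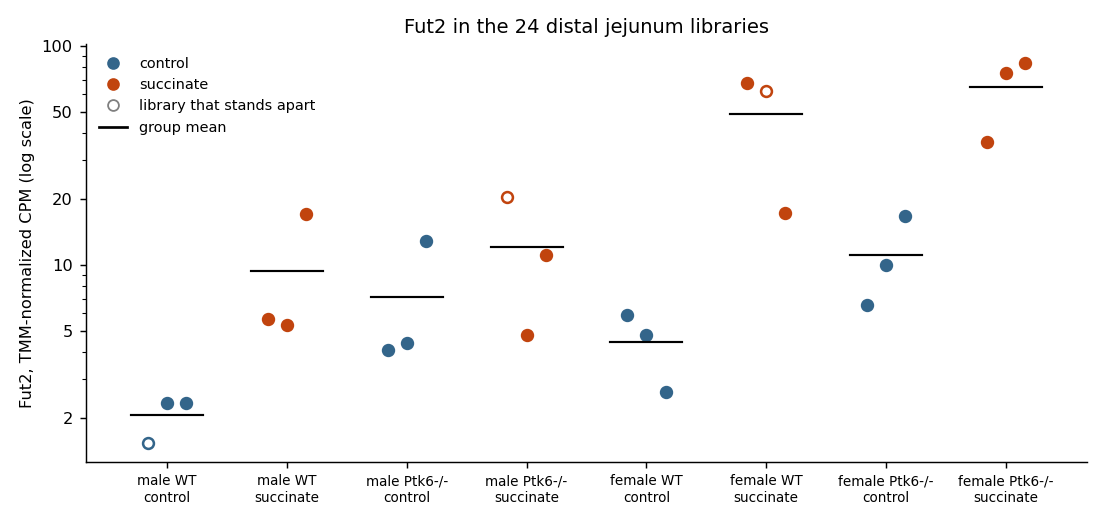
Fut2 in TMM-normalized CPM (log scale) in each library, by group, with open circles for the 3 libraries that stand apart and a black line for the mean of each group. The 6 libraries labelled female succinate lie between 17.3 and 83.5 CPM, above the female controls at 2.63 to 16.7 CPM, and the open circle among them (62.1 CPM) is the library with Y-linked genes at a male level.

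The mean log2 fold change of Fut2 with succinate was 2.22 (SE 0.31, adjusted p = 0.000504 by edgeR's quasi-likelihood test). It was 2.01 (adjusted p = 0.00611 by edgeR) without the 3 libraries that stood apart, and 2.17 (adjusted p = 0.00132 by edgeR) without the library with Y-linked genes alone. By group, the log2 fold change was 2.16 (SE 0.51, adjusted p = 0.947) in male wild type mice, 3.48 (SE 0.58, adjusted p = 0.217) in female wild type mice and 2.54 (SE 0.46, adjusted p = 0.175) in female Ptk6-/- mice, all by edgeR. In male Ptk6-/- mice, where the groups overlapped, it was 0.79 (SE 0.65, adjusted p = 0.697 by edgeR). Without the library with Y-linked genes, the value in female wild type mice was 3.29 (adjusted p = 0.531 by edgeR). None of these 4 comparisons of 3 against 3 mice passed edgeR's test for Fut2, although DESeq2 called Fut2 in 3 of them, all but male Ptk6-/-. A fit of all 24 libraries called it in female wild type mice, with an adjusted p of 0.0218 by edgeR. Single libraries decided 2 of these calls: without male wild type succinate replicate 1 the adjusted p in male wild type mice was 0.0216, and without female wild type succinate replicate 3 that in female wild type mice was 0.00828, both by edgeR.

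The difference between the sexes in the succinate response of Fut2, male minus female averaged over genotypes, was -1.58 on the log2 scale (SE 0.60, unadjusted p = 0.0162 and adjusted p = 0.447 by edgeR). Without the library with Y-linked genes it was -1.48 (unadjusted p = 0.0288 and adjusted p = 0.638 by edgeR), and without the 3 libraries that stood apart -1.84 (unadjusted p = 0.011 and adjusted p = 0.488 by edgeR). With all libraries it did not pass the test by edgeR or DESeq2 (205 genes of the whole table called), while limma on log2(FPKM + 1) called it (28 genes in all). Of all genes, 0.0738% (16 genes) were called by edgeR for this difference, and 0 genes without the library with Y-linked genes. An unadjusted p under 0.05 was reached by 8.27% of all genes. Of the 10 genes, 2 had one, Fut2 and St6galnac1 (unadjusted p = 0.00598, adjusted p = 0.326 by edgeR). The differences between genotypes in the response, Ptk6-/- minus wild type, were -1.38 (SE 0.88) in males and -0.91 (SE 0.73) in females, with adjusted p-values of 0.993 and 0.853 by edgeR. In females it was -0.73 without the library with Y-linked genes (adjusted p = 1.00 by edgeR). These values neither show nor exclude a difference of that size between the genotypes.

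Tuft cell markers moved with Fut2. The summed CPM of 16 tuft cell genes, each detected in some library, was 63.6 to 86.5 in the 12 controls. It was 112 to 143 in male wild type succinate libraries and 64.7 to 107 in male Ptk6-/- succinate libraries. In females it was 153 to 453 in wild type (416 in the library with Y-linked genes) and 215 to 461 in Ptk6-/- succinate libraries. All 16 had a positive mean log2 fold change with succinate and 10 of 16 were called higher. Among the succinate libraries of female wild type mice, replicate 3 had both the lowest tuft cell sum and the lowest Fut2. Male Ptk6-/- succinate replicate 1 did not follow the pattern, with 20.3 CPM of Fut2 at a tuft cell sum of 64.7, and it was the shallowest library. The controls did not follow it either, with Fut2 at 1.54 to 16.7 CPM within their narrow range of tuft cell sums. Male Ptk6-/- control replicate 3 held 12.8 CPM of Fut2 at a sum of 75.5. Male wild type succinate replicate 2 held 5.32 CPM at a sum of 121. A second list, of 4 genes of the response to the cytokine IL-22 (Il22ra1, Reg3b, Reg3g and Saa1), was added after the values were seen. Its sum was 171 to 1314 CPM in female wild type (171 in the library with Y-linked genes) and 228 to 1577 CPM in female Ptk6-/- succinate libraries, and at least 3225 CPM in every library of the other 6 groups. Of a type 2 response list (Il13, Il4, Il5, Retnlb and Il25), also added later, 4 of 4 tested had a positive mean log2 fold change and 1 was called higher. Smooth muscle markers summed to 7649, 7441 and 3859 CPM in female wild type succinate replicates 1, 2 and 3, the order of Fut2. In female Ptk6-/- succinate mice the orders differed. The summed level of 4 ileal genes (Fabp6, Slc10a2, Slc51a and Slc51b), also added later, was lower after succinate in females, without overlap. It was 422 to 1600 beside 1786 to 3260 CPM in wild type and 321 to 647 beside 821 to 2718 CPM in Ptk6-/- mice. In males it overlapped. Enterocyte sums were lower in succinate-treated wild type females (29636 to 39311 beside 46860 to 53672 CPM) and higher in succinate-treated Ptk6-/- males (33357 to 54766 beside 21226 to 33107 CPM). The part of these lists in the Fut2 result was not tested.

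**Figure D3:**
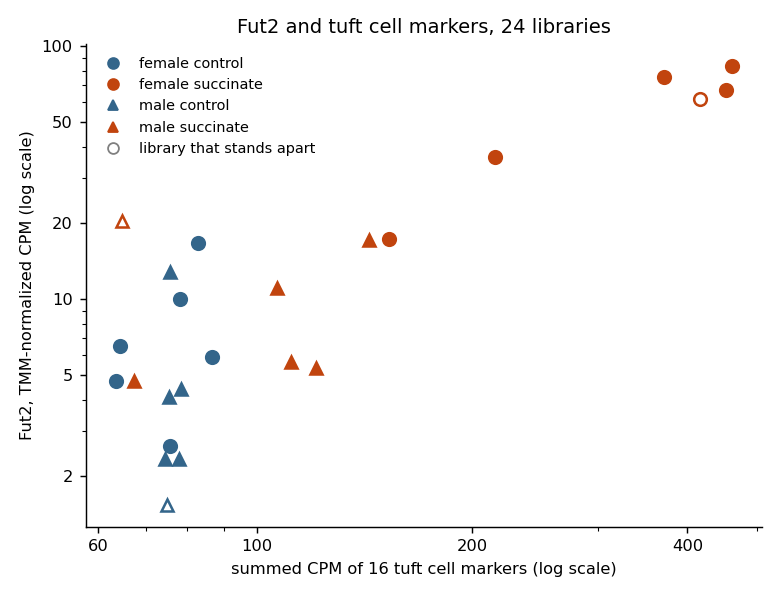
Fut2 in TMM-normalized CPM against the summed CPM of 16 tuft cell markers (both on log scales) in the 24 libraries, with circles for females, triangles for males, blue for controls, orange for succinate and open symbols for the 3 libraries that stand apart. The controls lie between 63.6 and 86.5 on the x axis, and the female succinate libraries reach 461 CPM of tuft cell markers and 83.5 CPM of Fut2.

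The genes whose pattern was nearest to Fut2 over the 24 libraries, by the root mean square difference of z-scored log2 CPM among 16528 genes, were Fer1l4 (0.43) and Ociad2 (0.44), where the median gene lay at 1.39. On FPKM, Ociad2 was not among the 100 nearest genes, while Fer1l4 was. Fer1l4 reached 13.0 CPM in a female wild type succinate library and at most 2.28 CPM in a control. Sec1, the neighbouring paralogue of Fut2 on chromosome 7, had at most 33 counts in any library. The treatment of reads that fit both genes is not given in the sources used here, so the Fut2 values are uncertain by that share.

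B3gnt6, the core 3 synthase, had lower group means after succinate in all 4 comparisons. Its CPM were 2.43, 3.02 and 2.65 in female wild type controls and 2.34, 0.551 and 1.29 after succinate. In female Ptk6-/- mice they were 2.98, 3.34 and 2.71 in controls and 2.05, 1.60 and 1.59 after succinate. In both pairs every succinate library was below every control, with log2 fold changes of -0.92 (SE 0.54, adjusted p = 0.711 by edgeR) and -0.81 (SE 0.33, adjusted p = 0.452 by edgeR). Male controls held 2.27, 1.89 and 2.59 CPM in wild type and 2.70, 3.64 and 4.31 CPM in Ptk6-/- mice. Male succinate libraries held 2.18, 1.27 and 1.64 CPM in wild type and 0.823, 3.05 and 2.06 CPM in Ptk6-/- mice, overlapping their controls. The mean log2 fold change was -0.72 (SE 0.21, unadjusted p = 0.00297), which did not pass after adjustment (adjusted p = 0.123 by edgeR). Without the library with Y-linked genes, which held 0.551 CPM, it was -0.63 (unadjusted p = 0.00324, adjusted p = 0.155 by edgeR), and the female wild type groups still did not overlap. The value of 0.823 CPM rests on 3 counts in the shallowest library.

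St6galnac1 was near the limit of detection, with 0 to 40 counts per library and 10 libraries at 0. All 6 libraries labelled female succinate were at 0, where a floor of 3 counts corresponds to 0.0509 to 0.0973 CPM in each. The library with Y-linked genes is the one with the floor of 0.0973 CPM, and without it the other 5 were at 0. Female Ptk6-/- controls held 0.661, 0.382 and 0.231 CPM. Their mean of 0.425 CPM was 7.77-fold above 0.0547 CPM, the mean floor of 3 counts in the succinate libraries. This fold covers the counting error of the zeros only and not the spread between mice. Female wild type controls held 0, 0.151 and 0 CPM, for which no fold can be given. In males the gene was detected after succinate in all 3 wild type and in 2 of 3 Ptk6-/- libraries, at 0.0965 to 0.370 CPM. The mean change over all groups had an adjusted p of 0.0784 by edgeR, and DESeq2 called it.

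The initiating enzymes, the core 1 enzyme and Gcnt3 had small mean differences with succinate. The mean log2 fold changes of Galnt3, Galnt12, C1galt1 and Gcnt3 were 0.01 (SE 0.17), 0.17 (SE 0.15), 0.08 (SE 0.11) and -0.03 (SE 0.13). Gcnt4 and Gcnt1, which make branches, had -0.38 (SE 0.19) and -0.37 (SE 0.27), and B4galnt2 had -0.58 (SE 0.56). None of these passed the test, and their adjusted p-values by edgeR were 0.339 to 1.00. Without the library with Y-linked genes the values were 0.06, 0.24, 0.10 and -0.01 for Galnt3, Galnt12, C1galt1 and Gcnt3, -0.31 and -0.47 for Gcnt4 and Gcnt1, and -0.46 for B4galnt2, and none passed (adjusted p-values of 0.449 to 1.00 by edgeR).

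In female Ptk6-/- mice, 5 of the 9 genes tested did not overlap between control and succinate, against 21.2% of all genes tested there. Besides Fut2 and B3gnt6 they were Gcnt3, C1galt1 and Galnt3, all higher after succinate. Gcnt3, a branching enzyme for core 2 and core 4, went from 37.9, 35.5 and 42.7 CPM to 48.8, 64.0 and 45.0 CPM (log2 fold change 0.42, SE 0.25). C1galt1 went from 41.1, 45.7 and 30.2 CPM to 45.8, 67.4 and 54.9 CPM (0.50, SE 0.27). The highest control and the lowest succinate library of C1galt1 were 45.7 and 45.8 CPM, so the groups met almost edge to edge. Galnt3 went from 33.6, 31.0 and 23.8 CPM to 38.7, 46.4 and 42.9 CPM (0.51, SE 0.25). The adjusted p-values of these 3 genes by edgeR were 0.497 to 0.564, and no gene of the 10 was called by edgeR in female Ptk6-/- mice, where 0.0879% of all genes were. There, 2 genes reached an unadjusted p under 0.05, Fut2 and B3gnt6, against 10.7% of all genes, DESeq2 called 2 (Fut2 and St6galnac1) among 426 of all genes, and limma called 0 among 33. St6galnac1, too low to be tested by edgeR, did not overlap either. Cell type markers moved in the same pair of groups. The enterocyte markers summed to 19187 to 21901 CPM after succinate and 22151 to 59071 CPM in controls, without overlap, with 3 of 11 positive and a median log2 fold change of -0.90. The Paneth cell markers had 5 of 6 positive with a median of 1.26, and sums of 13672 to 44315 CPM beside 6863 to 16600 CPM. None of either list was called by edgeR, and their part in these results was not tested.

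Elsewhere the counts of non-overlap were 2 of 9 in female wild type mice (13.3% of all genes tested, and without the library with Y-linked genes 3 of 9, with Galnt12 added, against 18.5%), 1 of 9 in male wild type mice (8.77%) and 1 of 10 in male Ptk6-/- mice (23%). The last of these was B4galnt2, with 202, 179 and 211 CPM in controls and 39.8, 160.3 and 116 CPM after succinate (log2 fold change -0.90, SE 0.43, adjusted p = 0.600 by edgeR). Without male Ptk6-/- succinate replicate 1, the lowest of these libraries, the log2 fold change was -0.54. In these 3 comparisons edgeR called 0 genes of the whole table. At an unadjusted p under 0.05 there was 1 of the 10 genes (Fut2) in male wild type, 0 in male Ptk6-/- and 1 (Fut2) in female wild type mice, against 4.07%, 7.75% and 7.77% of all genes. DESeq2 called 1, 0 and 1 of the 10, among 50, 39 and 274 of all genes, and limma 0 in each, among 126, 6 and 1.

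The second question was whether loss of Ptk6 changed these genes. In control males, B4galnt2 was the one gene of the 10 that passed the test, and it was higher in Ptk6-/- mice. Of the 19218 genes tested there, 142 (0.739%) were called, 0.515% as higher. Of the 10 genes, 7 did not overlap between genotypes, all of them higher in Ptk6-/- (Fut2, B4galnt2, Gcnt4, C1galt1, B3gnt6, St6galnac1 and Galnt3). Over all genes tested, 31.4% did not overlap in that comparison, 16.5% in the higher and 14.9% in the lower direction. C1galt1 was separated by little, with 47.6 CPM in the highest wild type and 47.7 CPM in the lowest Ptk6-/- library, and St6galnac1 passed the filter on low counts through the Ptk6-/- group. An unadjusted p under 0.05 was reached by 5 of the 10, against 25.2% of all genes. The 6 Paneth cell markers all had negative log2 fold changes in this comparison (median -1.04, 0 called by edgeR), with sums of 14722 to 17141 CPM in wild type and 5307 to 14615 CPM in Ptk6-/- control males, and their part in these values was not tested. A length slope, fitted in each library as the rise in log2 CPM per doubling of gene length, also separated these groups, at 0.713 to 0.770 in wild type and 0.863 to 0.917 in Ptk6-/- control males. With an offset for gene length in the fit, 48 genes of the whole table were called in place of 142, and B4galnt2 was among them.

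B4galnt2 CPM were 73.5, 82.4 and 98.4 in wild type control males and 202, 179 and 211 in Ptk6-/- control males. The log2 fold change was 1.21 (SE 0.13, adjusted p = 0.0167 by edgeR). Without male wild type control replicate 1, which stood apart, it was 1.15 (adjusted p = 0.0192 by edgeR). Leaving out 1 of 4 other libraries (replicates 2 and 3 of either genotype) ended the call, with adjusted p-values of 0.0612 to 0.1 and log2 fold changes of 1.16 to 1.299 by edgeR. In a fit of all 24 libraries, which shares 1 estimate of the spread over all groups, the log2 fold change was 1.22 and the adjusted p 0.930 by edgeR. The call was also lost with the replicate number as a block (adjusted p = 0.0538 by edgeR) and by limma on log2(FPKM + 1) (adjusted p = 0.145). It was kept with the offset for gene length (log2 fold change 1.44, adjusted p = 0.0135 by edgeR). Both of these control groups were tight, with a coefficient of variation of 14.9% in wild type and 8.39% in Ptk6-/-.

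Female wild type controls held 74.5, 9.005 and 29.8 CPM of B4galnt2 and female Ptk6-/- controls 151, 225 and 11.5 CPM. Male wild type succinate libraries held 182, 14.2 and 15.5 CPM. Female wild type succinate libraries held 6.04, 5.48 and 94.7 CPM, and female Ptk6-/- succinate libraries 63.5, 10.7 and 110.1 CPM. The male Ptk6-/- succinate libraries, given above, spanned 4.03-fold. In the other 5 groups the highest library exceeded the lowest by 8.27-fold to 19.6-fold. Ordered by mean, the groups ran from 198 CPM in male Ptk6-/- controls to 35.4 CPM in female wild type succinate mice, and every neighbour in that order overlapped. Without the library with Y-linked genes the mean of female wild type succinate was 50.4 CPM, above female wild type controls at 37.8 CPM, which then came last. The log2 fold change between genotypes was 1.82 (SE 1.04) in control females, 0.58 (SE 0.98) in succinate-treated males and 0.80 (SE 1.19) in succinate-treated females (0.29 without the library with Y-linked genes), none of which passed.

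**Figure D4:**
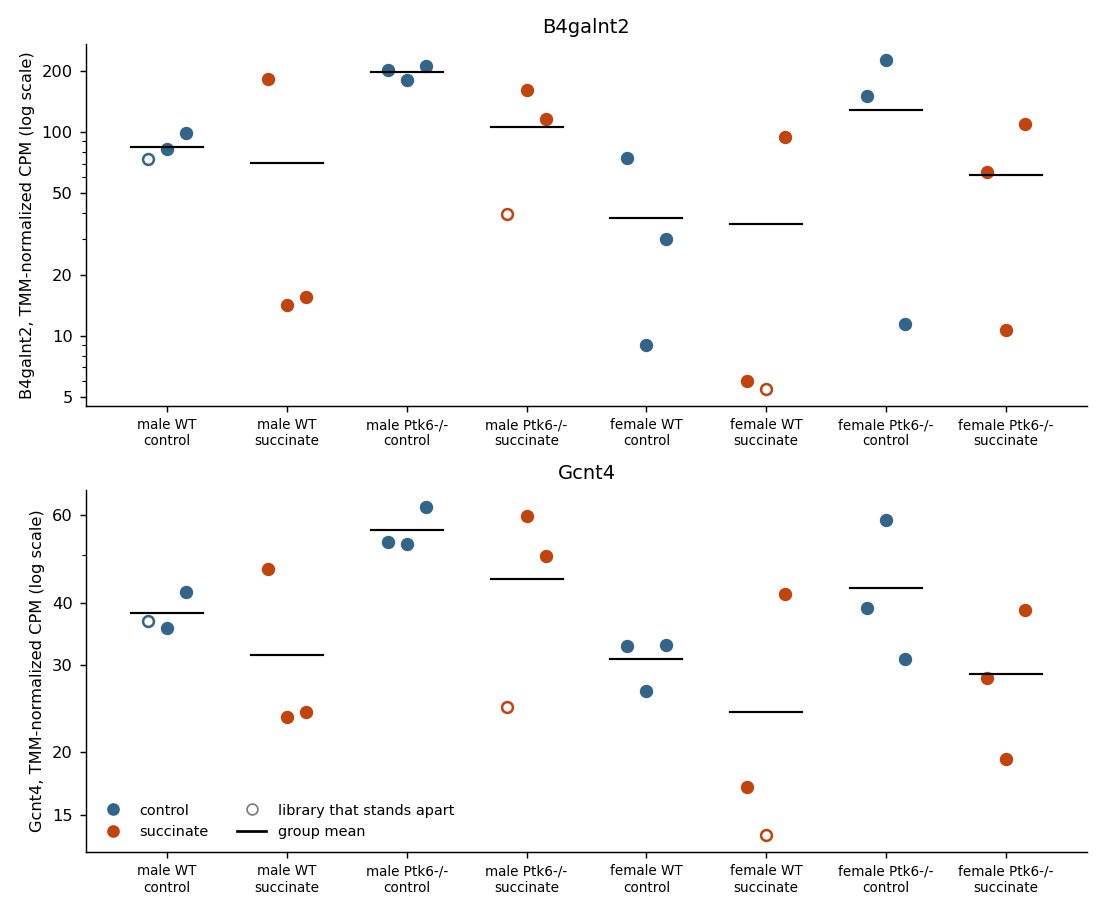
B4galnt2 (top) and Gcnt4 (bottom) in TMM-normalized CPM (log scales) in each library, by group, with open circles for the 3 libraries that stand apart and a black line for each group's mean. In control males the Ptk6-/- libraries lie above the wild type libraries for both genes, while single libraries of the other groups lie far from their neighbours for B4galnt2, such as 11.5 CPM beside 151 and 225 CPM in female Ptk6-/- controls.

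Gcnt4, which adds core 2 branches, had its high and low values in many of the same libraries. It held 36.7, 35.5 and 42.0 CPM in wild type and 53.0, 52.6 and 62.5 CPM in Ptk6-/- control males. The log2 fold change was 0.54 (SE 0.12, adjusted p = 0.0481 by edgeR), under the 2-fold limit of a call, and with the offset for gene length 0.42 (adjusted p = 0.126 by edgeR). Among male wild type succinate libraries it was 46.7 CPM in replicate 1 and 23.5 and 24.1 CPM in the others, and B4galnt2 was highest in that same replicate. In female Ptk6-/- succinate libraries, 28.3, 19.4 and 38.8 CPM, replicate 2 was the lowest for both genes. Female wild type controls, 32.8, 26.6 and 32.97 CPM, also had their lowest value of both genes in replicate 2. Gcnt4 was among the 100 genes nearest to B4galnt2 in pattern. The nearest were Zc3h18 (root mean square difference 0.21) and Il22ra1 (0.22), where the median gene lay at 1.36, and for Gcnt4 they were Cgn (0.23) and Eps8 (0.25). The length slope also moved with these genes in most groups. The library lowest in B4galnt2 had the lowest slope of its group in 6 of 8 groups, such as 0.684 beside 0.849 and 0.892 in female Ptk6-/- controls, and the exceptions were male Ptk6-/- controls and female wild type succinate mice. For Gcnt4 it was 5 of 8, with male wild type controls as a further exception. How many of all genes follow the slope in this way was not counted. In male wild type succinate mice the slope was 0.886 in the library high in both genes, beside 0.689 and 0.723. The part of the slope in these patterns was not tested. On FPKM, Zc3h18 was not among the 100 genes nearest to B4galnt2, while Il22ra1 was.

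Il22ra1 encodes a subunit of the receptor for the cytokine IL-22. Its CPM were 25.9, 29.1 and 31.6 in wild type and 102.9, 77.7 and 115 in Ptk6-/- control males. It was 5.38 and 6.51 CPM in the 2 male wild type succinate libraries where B4galnt2 was low and 75.7 CPM in the one where B4galnt2 was high. In the female Ptk6-/- control with 11.5 CPM of B4galnt2 it was 5.54 CPM, beside 50.4 and 112 CPM in the other two. The likeness is a description over 24 libraries, in which both genes come from the same RNA. The summed level of 4 ileal genes (Fabp6, Slc10a2, Slc51a and Slc51b), a list added after the values were seen, was 321 to 9420 CPM. It was 2718 in the female Ptk6-/- control that was low in B4galnt2, beside 821 and 1162 in the other two. It was 872 in the male wild type succinate library that was high in B4galnt2, beside 2946 and 3754. In female Ptk6-/- succinate mice the order was not of that kind, with 444 in the library lowest in B4galnt2, between 321 and 647. Over the 8 groups, the library lowest in B4galnt2 had the highest ileal sum in 4. Besides the female Ptk6-/- controls these were male Ptk6-/- controls, male Ptk6-/- succinate mice and female wild type controls. In male Ptk6-/- controls it was 1806 at 179 CPM of B4galnt2, beside 901 and 1398. In male Ptk6-/- succinate mice it was 9420 in the library at 39.8 CPM of B4galnt2, beside 1850 and 1725. In female wild type controls it was 3260 in the library at 9.005 CPM of B4galnt2, beside 1786 and 2988. In female wild type succinate mice the order was the reverse, with 1600 in the library high in B4galnt2, beside 754 and 422 in the low ones. It was the reverse in male wild type controls too, with 1628, 1753 and 2278 at 73.5, 82.4 and 98.4 CPM of B4galnt2. The part of the sampled position in the B4galnt2 values was not tested.

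The promoter sequences of B4galnt2 and Gcnt4 are shown because these genes had their high and low values in many of the same libraries. They are from RefSeq on GRCm38.p6 (5 of the 10 genes had an entry), read 5′ to 3′ on the strand of the gene over the 250 bases before the start site, and capitals mark the motifs found. The B4galnt2 sequence lies on the minus strand at chr11:95914872-95915121 and that of Gcnt4, upstream of the first of 2 start sites, on the plus strand at chr13:96924094-96924343.
B4galnt2: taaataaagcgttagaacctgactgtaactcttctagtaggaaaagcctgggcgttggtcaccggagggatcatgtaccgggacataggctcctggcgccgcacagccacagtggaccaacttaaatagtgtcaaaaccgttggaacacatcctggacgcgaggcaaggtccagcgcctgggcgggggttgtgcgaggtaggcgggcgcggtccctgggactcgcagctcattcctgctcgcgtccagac
Gcnt4: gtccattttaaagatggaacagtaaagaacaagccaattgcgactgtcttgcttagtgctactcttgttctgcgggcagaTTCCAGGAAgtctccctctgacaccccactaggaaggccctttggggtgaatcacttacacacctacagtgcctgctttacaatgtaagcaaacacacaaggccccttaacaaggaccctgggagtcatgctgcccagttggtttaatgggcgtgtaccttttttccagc

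Both strands were searched for the general promoter motif of the box that binds TBP, TATAAA, for the motif of GATA factors, AGATAA, for that of the intestinal factor CDX2, TTTATG, for CAAAGTCCA (HNF4), for TTCNNNGAA (STAT factors, with 3 bases between the arms), the same STAT arms with 4 bases between them, and the HNF1 palindrome. Gcnt4 held 1 match, TTCCAGGAA, at 170 to 162 bases before the start, and the B4galnt2 sequence held none of these letters. Of all 32851 promoters, cut to this length, 7.02% held TTCNNNGAA, 5.85% the form with 4 bases between, 12.4% TATAAA, 9.99% AGATAA and 10.8% TTTATG. CAAAGTCCA was in 0.384% and the HNF1 palindrome in 0.00913%. A match is a description of the letters and not of binding. The GC content was 58.4% for B4galnt2, with 18 CpG, and 48.8% for the printed Gcnt4 sequence, with 3 CpG, beside medians of 52.4% and 6 over all promoters. The entry for the other Gcnt4 start site, chr13:96924463-96924712, had 61.2% GC and 15 CpG and held no match to these motifs. In the deposited table, whose build is GRCm39 by the labels, B4galnt2 (ENSMUSG00000013418) spans chr11:95756769-95805717 on the minus strand and Gcnt4 (ENSMUSG00000091387) chr13:97061197-97087414 on the plus strand. Fut2 (ENSMUSG00000055978) lies at chr7:45298015-45315818 on the minus strand. The table lists protein-coding transcripts for these 3 genes. A gene on the opposite strand overlaps B4galnt2 (Gm11534, at most 18 counts per library) and Gcnt4 (Gm48597, at most 1).

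For Fut2 the genotypes did not overlap in controls of either sex, and the test was not passed in either. In control males all 3 Ptk6-/- libraries were above the wild type libraries (log2 fold change 1.74, SE 0.45, adjusted p = 0.0633 by edgeR), and DESeq2 called the gene. Without male Ptk6-/- control replicate 3, the highest of them at 12.8 CPM, the log2 fold change was 1.02. In control females all 3 Ptk6-/- libraries were likewise above the wild type libraries (1.35, SE 0.43, adjusted p = 0.372 by edgeR). Over both sexes the 6 wild type controls held a median of 2.48 CPM and the 6 Ptk6-/- controls one of 8.26 CPM. Tuft cell markers did not separate these groups, with sums of 63.6 to 86.5 CPM in wild type and 64.4 to 82.9 CPM in Ptk6-/- controls. Other lists did in control females. B cell follicle markers summed to 14.3 to 26.6 CPM in wild type and 27.7 to 74.6 CPM in Ptk6-/- mice, with 7 of 7 positive and 0 called. Lung markers summed to 0 to 0.331 and 10.5 to 16.8 CPM, with 1 of 4 tested called higher by edgeR. In control males both lists overlapped. Their part in the Fut2 values was not tested. After succinate, the genotypes overlapped in both sexes, with log2 fold changes of 0.38 (SE 0.65) in males and 0.42 (SE 0.54) in females (0.59 without the library with Y-linked genes).

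The remaining genes that did not overlap in control males did not pass. Galnt3, an initiating GalNAc-transferase, held 16.4, 30.4 and 27.8 CPM in wild type and 36.2, 32.4 and 41.7 CPM in Ptk6-/- control males (log2 fold change 0.55, SE 0.20, adjusted p = 0.139 by edgeR). B3gnt6 had 0.64 (SE 0.27, adjusted p = 0.184 by edgeR) and C1galt1 0.24 (SE 0.14, adjusted p = 0.341 by edgeR). St6galnac1 held 0.243, 0.295 and 0 CPM in wild type and 0.734, 0.299 and 0.392 CPM in Ptk6-/- control males (adjusted p = 0.436 by edgeR). Its groups were thus separated by less than the floor of a library.

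**Figure D5:**
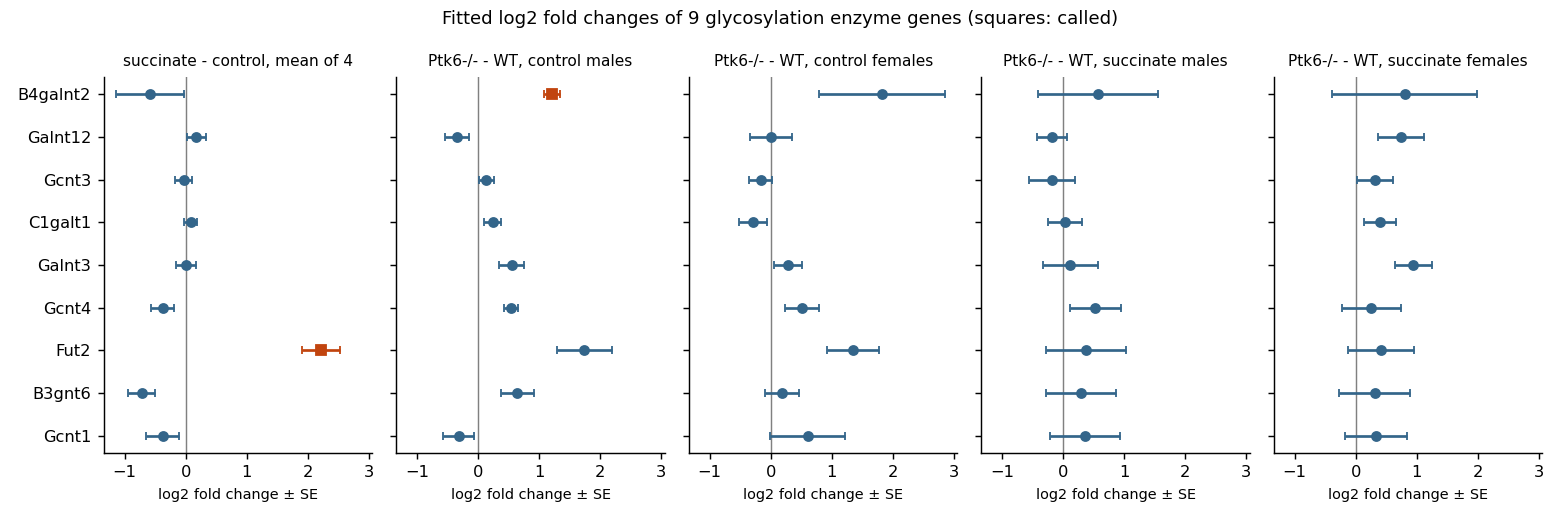
Fitted log2 fold changes with standard errors of 9 of the 10 genes (St6galnac1, at 0 in 10 libraries, is left out), for succinate minus control averaged over 4 pairs of groups and for Ptk6-/- minus wild type in 4 pairs of groups of 3 mice. Orange squares mark the calls, Fut2 with succinate (2.22) and B4galnt2 in control males (1.21), and blue circles the values that did not pass.

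In control females 2 of 9 genes tested did not overlap between genotypes, against 18.9% of all genes tested. Those were Fut2 and Gcnt3, the latter lower in Ptk6-/- at 37.9, 35.5 and 42.7 CPM beside 43.1, 45.6 and 44.6 CPM (log2 fold change -0.17, SE 0.19). In succinate-treated males it was 1 of 9 (8.66%) and in succinate-treated females 2 of 9 (10.8%). No gene of the 10 was called by edgeR, DESeq2 or limma in these 3 comparisons, where edgeR called 0.0158%, 0% and 0% of all genes, DESeq2 175, 72 and 42 genes and limma 4, 13 and 2. An unadjusted p under 0.05 was reached by 1, 0 and 1 of the 10, against 11.1%, 2.72% and 4.52% of all genes. St6galnac1, too low to be tested, also did not overlap in control females. In succinate-treated females, Galnt3 was 26.0, 14.9 and 25.3 CPM in wild type and 38.7, 46.4 and 42.9 CPM in Ptk6-/- mice (log2 fold change 0.95, SE 0.31, unadjusted p = 0.0158, adjusted p = 0.931 by edgeR). The lowest wild type value was that of the library with Y-linked genes, and without it the log2 fold change was 0.71 (unadjusted p = 0.0304, adjusted p = 1.00 by edgeR). All 9 genes tested had positive log2 fold changes in that comparison, as had 47.1% of all genes, with a median of 0.40, beside a median of -0.03 over all genes. Without that library 7 were positive and 2 negative (Gcnt4 at -0.04 and B3gnt6 at -0.08), with a median of 0.31. The shared sign of all 9 thus rested on it, while most stayed positive. Over all genes 47.6% were positive without it. The same 2 genes, Galnt3 and Galnt12, still did not overlap without it, against 17.5% of all genes.

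Galnt12, the other initiating enzyme, did not overlap between genotypes after succinate in either sex, in opposite directions. How many of all genes do so was not counted. In males it held 39.5, 44.8 and 40.9 CPM in wild type and 33.2, 37.2 and 36.9 CPM in Ptk6-/- mice (log2 fold change -0.19, SE 0.25, adjusted p = 1.00 by edgeR). In females it held 49.9, 22.0 and 43.3 CPM in wild type and 65.6, 77.7 and 51.0 CPM in Ptk6-/- mice (0.75, SE 0.37, adjusted p = 0.931 by edgeR), or 0.45 without the library with Y-linked genes, the one at 22.0 CPM. The difference between these effects was not tested.

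Between the sexes, no gene of the 10 was called among controls by edgeR or DESeq2 (11 genes, or 0.0538% of 20428, were called by edgeR), and limma called 0. An unadjusted p under 0.05 was reached by 2 of the 10, against 12.3% of all genes. Fut2 differed by -0.84 in controls (male minus female, log2 scale, SE 0.33, adjusted p = 0.404 by edgeR) and Gcnt4 by 0.37 (SE 0.15, adjusted p = 0.404 by edgeR). The difference between genotypes in the succinate response passed the tests of edgeR, DESeq2 and limma for none of the genes in either sex. An unadjusted p under 0.05 was reached by 0 of them in males and 0 in females, against 3.8% and 6.46% of all genes.

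Gcnt1, the widely expressed core 2 branching enzyme, stayed low, at 1.28 to 7.94 CPM over the 24 libraries. No pair of its groups was separated in any of the comparisons of 2 groups. In male wild type mice the overlap rested on succinate replicate 1, at 3.83 CPM beside a lowest control of 3.79 CPM. Without that library edgeR called Gcnt1 among 1077 genes of the whole table. Female Ptk6-/- controls had its widest spread, with 3.90, 7.94 and 1.91 CPM.

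Of 100 other genes of the pathway, in 7 lists, 97 were in the table and 89 were tested for the mean succinate effect. Of these, 1 was called higher and 0 lower, the sialyltransferase St6galnac6 that caps glycolipids. In all, 20 of the 89 reached an unadjusted p under 0.05, with 11 higher and 9 lower, against 16.1% of all genes. St6galnac6 had a log2 fold change of 1.05 (SE 0.23, adjusted p = 0.0304 by edgeR) and medians per group that ran from 5.65 CPM in male wild type controls to 21.1 CPM in female wild type succinate mice. That group held 21.1, 24.7 and 10.5 CPM, of which 24.7 CPM is the library with Y-linked genes. Its call was lost without that library alone (0.99, adjusted p = 0.0633 by edgeR), without the 3 libraries that stood apart (1.01, adjusted p = 0.105 by edgeR) and, in all, in 18 of 24 fits that left out 1 library. The sialyltransferases St3gal6 and St3gal3, at 0.93 (SE 0.21) and 0.88 (SE 0.20), had adjusted p-values of 0.0298 and 0.0364 by edgeR but stayed under 2-fold. St3gal6 reached 37.9, 92.8 and 59.2 CPM in female Ptk6-/- succinate libraries, beside 15.4, 15.2 and 21.0 CPM in their controls. In wild type mice it was also higher after succinate, at 20.5 to 26.7 beside 11.2 to 12.6 CPM in males and 22.6 to 57.8 beside 14.5 to 19.7 CPM in females. In male Ptk6-/- mice its mean was lower after succinate (10.8 beside 15.3 CPM), and the groups overlapped. The mean of St6galnac6 hardly differed there (6.23 beside 6.38 CPM) and was higher after succinate in the other groups.

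The median log2 fold change was -0.11 for 16 GalNAc-transferases, -0.17 for 18 core, extension and branching enzymes, -0.01 for 12 terminal transferases and -0.05 for 12 sialyltransferases. It was -0.25 for 9 sulfotransferases and sulfate suppliers, 0.01 for 16 genes of nucleotide sugar supply and -0.40 for 6 mucins. Within single groups, A4gnt, which adds the terminal GlcNAc of gland mucins, was 5.25, 8.72 and 9.16 CPM after succinate in female Ptk6-/- mice and 2.13, 1.17 and 1.39 CPM in their controls (log2 fold change 2.28, SE 0.39, adjusted p = 0.156 by edgeR).

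In control males, 83 of the 100 pathway genes were tested between genotypes, and 2 were called, both higher in Ptk6-/- mice. One was B3galt5, which extends chains with galactose, at 1.78, 4.76 and 3.28 CPM in wild type and 20.3, 25.4 and 62.9 CPM in Ptk6-/- control males (log2 fold change 3.39, SE 0.48, adjusted p = 0.0234 by edgeR). In succinate-treated males B3galt5 held 5.40, 1.94 and 2.63 CPM in wild type and 43.3, 16.5 and 30.9 CPM in Ptk6-/- mice, with a log2 fold change of 3.21 (SE 0.55) that did not pass (adjusted p = 0.382 by edgeR). In females the genotypes overlapped for B3galt5, at 1.08 to 6.11 CPM in wild type and 5.57 to 21.2 CPM in Ptk6-/- controls, and at 1.06 to 1.43 and 1.28 to 3.60 CPM after succinate. The other was Muc2, the main secreted gel-forming mucin, at 2252, 1680.2 and 1447 CPM in wild type and 4163, 4321 and 5124 CPM in Ptk6-/- control males (1.31, SE 0.26, adjusted p = 0.0378 by edgeR). In succinate-treated males Muc2 held 1436 to 3111 CPM in wild type and 3484 to 3945 CPM in Ptk6-/- mice. In females it held 1521 to 2911 CPM in wild type and 2928 to 7415 CPM in Ptk6-/- controls (1.41, SE 0.46, adjusted p = 0.373 by edgeR). After succinate the female groups overlapped and the mean was lower in Ptk6-/- mice (1931 beside 2379 CPM). As with B4galnt2, both calls ended without replicate 2 or 3 of either genotype, with adjusted p-values of up to 0.1 for B3galt5 and 0.125 for Muc2 by edgeR, and in the fit of all 24 libraries (0.410 and 0.930 by edgeR). Over the 10 alternative settings, the call was lost in 5 for Muc2 and in 3 for B3galt5, beside 4 for B4galnt2. In all, 24 of the 83 reached an unadjusted p under 0.05, 19 higher and 5 lower, against 25.2% of all genes. Goblet cell markers as a list had a median log2 fold change of -0.38 in this comparison, with 1 of 11 called, which was Muc2 itself, and their summed levels were 12018 to 12876 CPM in wild type and 12704 to 16129 CPM in Ptk6-/- control males.

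The genes nearest in pattern to the other members were Uba2 and Twf1 for Galnt3 (root mean square differences of 0.34 and 0.42), Rbmxl1 and Qsox1 for Galnt12 (0.50 and 0.52), Tdg and Hspa5 for C1galt1 (0.47 and 0.48) and Steap1 and Prelid3b for Gcnt3 (0.44 and 0.45). For the low genes they were Apol7b and Zscan29 for B3gnt6 (0.57 and 0.60), Dicer1 and Ighv14-2 for Gcnt1 (0.69 and 0.70) and C1rb and Ncoa1 for St6galnac1 (0.53 and 0.64), the last with 10 libraries at 0. Of these, Steap1 and Zscan29 were not among the 100 nearest genes on FPKM.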

How the data were processed

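RNA of the distal jejunum from 24 mice was sequenced as stranded poly(A) libraries, 1 per mouse. The authors trimmed reads with Cutadapt, mapped them with HISAT2 and assembled transcripts with StringTie, and the deposited count values are reads per gene without normalization. The deposited FPKM values, which are scaled by gene length and depth, came from StringTie and ballgown. The build in the labels is GRCm39, and the counting program is not given in the sources used here, so antisense genes could share reads; genes whose deposited positions overlap one of the 10 had at most 53 counts in any library.

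Counts were tested with edgeR 4.0.16 and limma 3.58.1 in R 4.3.3, with TMM, keeping genes that reached 10 counts in 3 or more libraries of a fit, and Benjamini-Hochberg adjustment over all genes. Genes were called at adjusted p under 0.05 and 2-fold. The study used DESeq2 (1.42.0 here), which served as an alternative. Further settings were its size factors within edgeR, no filter, a replicate block, a gene length offset, limma on log2(FPKM + 1) above a mean of 0.5 FPKM, all 24 libraries in 1 fit, no fold limit, leaving out each library and, chosen after seeing the data, leaving out 3 libraries. Total counts of 8080321 to 52824743 set the precision: 3 counts, the floor, are 0.0509 to 0.823 CPM, for counting error only. On simulated data with known changes, the fits of the mean succinate effect and of control males recovered most of the larger changes and fewer of the smaller, with some false calls. The fit in female wild type mice recovered few of the larger changes and none of the smaller, so a miss there says little. Recovery was counted at adjusted p under 0.05 alone, without the 2-fold limit. Libraries of a group differed by more than sampling noise (chi-square per gene of at least 30.1), and p-values measure the spread between mice.

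The 10 genes, the gene lists and the tests were chosen with earlier results of these data known. All 10 genes were named, with fold changes where a gene was called, where groups did not overlap or where the adjusted p was under 0.1, except for St6galnac1, whose fitted fold changes depend on the prior count and are not given. Fold changes of Fut2 in all comparisons, of all members but St6galnac1 for the mean succinate effect, of B4galnt2 between genotypes and of the sex effects were added to this rule after the values were seen. Pathway genes came from those called and the 3 with the smallest p in a comparison, and Sec1 was added as a paralogue. The 2 nearest genes were sought for each member.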

Additional observations from a re-analysis of the deposited data

Results flagged for a closer look

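Galnt12 was the one gene of those chosen whose libraries separated by genotype in opposite directions in 2 pairs of groups. How many of all genes do so was not counted, so the pattern cannot be called unusual. In single pairs after succinate, 8.66% of all genes tested did not overlap between genotypes in males and 10.8% in females. After succinate, each Ptk6-/- library was below each wild type library in males (log2 fold change -0.19) and above each in females (0.75). The difference between these effects was not tested. The male value turned to 0.0677 under the offset for gene length, and the lowest succinate library of each sex, male Ptk6-/- succinate replicate 1 (33.2 CPM) and female wild type succinate replicate 2 (22.0 CPM, the library with Y-linked genes at a male level), was among the 3 that stood apart. Without them the values were -0.20 in males and 0.45 in females. No group held more than 3 libraries, so single libraries were not tested as outliers within a group.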

How the results depend on the processing

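The number of the 10 genes called was recomputed under each alternative. For the mean succinate effect it stayed at 1 (Fut2), except for 2 with DESeq2 (Fut2 and St6galnac1), and it was 1 to 2 when 1 library was left out, with 2 without female wild type succinate replicate 3, where 539 genes of the whole table were called in place of 158. For single groups, where edgeR called 0, DESeq2 called 1 in male wild type, 1 in female wild type and 2 in female Ptk6-/- mice, and the fit of all 24 libraries called 1 in female wild type mice. Leaving out 1 library gave 0 to 3 in male wild type mice (3, Fut2, B4galnt2 and Gcnt1, without succinate replicate 1, where 1077 genes of the whole table were called in place of 0) and 0 to 1 in female wild type mice (1 without succinate replicate 3, where 597 were called in place of 0). For the genotype effect in control males, where edgeR called 1, DESeq2 and no filter on low counts gave 2 (Fut2 and B4galnt2) and adjusted p alone gave 2 (B4galnt2 and Gcnt4). There the replicate block, the length offset with the replicate block, limma on log2(FPKM + 1) and the fit of all 24 libraries gave 0, and leaving out 1 library gave 0 to 1. The sex by succinate difference was 0 except for 1 (Fut2) with limma on log2(FPKM + 1). In the other comparisons the count was 0 under every alternative run. The causes of these changes were not tested.

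Replicate numbers are shared between groups but did not pair the mice: same-numbered libraries correlated over 0.1 in 4 of 24 pairs (-0.48 to 0.33). With the replicate block, genes called over the whole table numbered 113 in place of 158 for the mean succinate effect and 5 in place of 142 in control males. In control males it was 277 with DESeq2, 48 with the length offset, 3 with that and the block, 1 in the fit of all 24 libraries and 813 with adjusted p alone. For the mean succinate effect it was 384 with DESeq2, 70 with limma on log2(FPKM + 1), 109 without the library labelled female wild type succinate replicate 2 and 91 without the 3 libraries that stood apart. With the replicate block, the log2 fold change of Fut2 with succinate was 2.24 (adjusted p = 0.00117 by edgeR) and that of B4galnt2 in control males 1.21 (adjusted p = 0.0538 by edgeR). Under the length offset, Galnt12 in succinate-treated males turned from -0.19 to 0.0677 without and 0.0681 with the replicate block.

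Over all alternatives, the mean log2 fold change of Fut2 lay between 1.27 and 2.38 and that of B4galnt2 in control males between 1.15 and 1.62. Depth limits St6galnac1 most, with at most 40 counts in any library.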
